A study of Homo sapiens with 12 samples.

Results

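The genes described here are 9 SOX transcription factors of the developing nervous system: the SOXB1 genes SOX1, SOX2 and SOX3, the SOXB2 gene SOX21, the SOXC genes SOX4, SOX11 and SOX12, the SOXE gene SOX9 and the SOXD gene SOX6. They were chosen by gene symbol from the 28207 genes of a count table, and all 9 were among the 17757 genes that passed the filter on low counts. The RNA came from cerebral organoids, brain-like tissue grown from human embryonic stem cells of the H1 line, with and without the gene FEZ1, which encodes an adaptor that links cargo to kinesin motors. The 12 libraries were 2 of FEZ1 knockout organoids at day 60, 2 of wildtype organoids at day 60, 4 of FEZ1 knockout organoids at day 10 and 4 of wildtype organoids at day 10. All 4 groups share the H1 background, and the labels name no agent or other allele. The labels give each library 1 of 3 codes whose meaning they do not state: all day 60 libraries and replicates 1 and 2 at day 10 carry B16, replicate 3 carries B27 and replicate 4 carries B29. The labels do not say how many knockout clones were used or whether the replicates were separate cultures, so p-values measure the spread between libraries only, and that spread may be technical.

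SOX proteins bind DNA through a high-mobility-group domain and usually act together with partner factors. In the neural tube, SOXB1 proteins are known to hold cells in the progenitor state and SOX21 to oppose them, while SOXC proteins are known to act as cells leave the cycle and switch on neuronal genes. SOX9 is known for neural stem cell maintenance, for gliogenesis and, outside the brain, for cartilage and neural crest, and SOX6 for the timing of neuron and oligodendrocyte formation and for interneurons. In bulk RNA, fewer cells of a type and less RNA per cell cannot be told apart, and this holds for every value below.

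Counts assigned to genes numbered 15668253 to 22745658 a library. Levels are given as CPM, the counts per 1000000 counts of a library size scaled by the trimmed mean of M values. FEZ1 itself stood at 47.6 and 48.4 CPM in knockout and 239.9 and 197 CPM in wildtype organoids at day 60, and at 19.4 to 22.7 CPM in knockout against 40.5 to 49.0 CPM in wildtype organoids at day 10, without overlap at either day. Its log2 fold change was -2.19 ± 0.16 at day 60 (SE, adjusted p = 0.000335) and -1.11 ± 0.11 at day 10 (adjusted p = 0.00153, edgeR quasi-likelihood test), so its RNA was lower but present in knockout libraries. The 12 fixed neural progenitor markers summed to 2880 to 2920 CPM in knockout and 2292 to 2308 CPM in wildtype organoids at day 60, and to 3258 to 3904 and 3047 to 3310 CPM at day 10. Pluripotency markers summed to 27.2 to 52.2 CPM at day 60 and 1479 to 2733 CPM at day 10. The libraries of wildtype replicates 1 and 2 at day 10, both of code B16, stood apart, with 12 neural crest markers at 1002 and 1492 CPM against 58.6 to 96.1 CPM in the other day 10 libraries. Wildtype replicate 2 at day 60 also stood apart, with 8 endoderm markers at 398 CPM against 23.4 to 30.2 CPM in the other day 60 libraries. Its mesenchyme and cartilage markers stood at 4017 CPM against 712 to 1938 CPM. The endoderm list holds SOX17, which is also an endothelial gene, and 3 of its 8 genes passed the filter on low counts, so it does not single out 1 lineage. Knockout replicate 1 at day 10 gave 13.2% of its counts to genes of ribosomal proteins, a share of 7.95% to 9.91% in the rest of day 10.

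Sequences upstream of the starts of 4 members are shown because these genes carry the patterns described below. SOX1 and SOX12 were higher at day 60, and SOX21 was lower at day 60. At day 10 SOX2 and SOX21 were both lower in the wildtype libraries of B16 than in those of B27 and B29. The windows of SOX4 and SOX3 overlap annotated exons and are not shown, and 80 bases of the SOX21 window lie in the first exon of SOX21-AS1 on the other strand. They are RefSeq windows of 250 bases ending just before the gene start (GRCh38.p14), read 5′ to 3′ on the gene's strand. Capitals mark matches on either strand to the SOX motifs ACAAAG and ACAATG, the octamer ATGCAAAT bound by POU partner factors, and the CCAAT box, which reads ATTGG on the other strand.
SOX1, chr13:112066899-112067148, plus strand: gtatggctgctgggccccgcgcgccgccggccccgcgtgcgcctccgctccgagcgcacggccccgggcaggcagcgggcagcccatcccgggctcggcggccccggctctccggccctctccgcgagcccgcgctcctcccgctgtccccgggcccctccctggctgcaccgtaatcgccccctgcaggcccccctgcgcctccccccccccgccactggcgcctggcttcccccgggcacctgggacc
SOX2, chr3:181711675-181711924, plus strand: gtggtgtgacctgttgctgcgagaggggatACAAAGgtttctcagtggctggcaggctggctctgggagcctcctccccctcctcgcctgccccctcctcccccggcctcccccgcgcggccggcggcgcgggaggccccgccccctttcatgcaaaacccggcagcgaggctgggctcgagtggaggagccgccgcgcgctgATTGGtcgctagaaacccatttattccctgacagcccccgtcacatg
SOX21, chr13:94712546-94712795, minus strand: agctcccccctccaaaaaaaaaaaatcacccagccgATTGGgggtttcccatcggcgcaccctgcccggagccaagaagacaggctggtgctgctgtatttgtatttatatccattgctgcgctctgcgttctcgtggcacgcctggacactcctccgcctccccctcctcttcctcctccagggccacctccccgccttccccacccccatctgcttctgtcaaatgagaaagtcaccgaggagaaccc
SOX12, chr20:325302-325551, plus strand: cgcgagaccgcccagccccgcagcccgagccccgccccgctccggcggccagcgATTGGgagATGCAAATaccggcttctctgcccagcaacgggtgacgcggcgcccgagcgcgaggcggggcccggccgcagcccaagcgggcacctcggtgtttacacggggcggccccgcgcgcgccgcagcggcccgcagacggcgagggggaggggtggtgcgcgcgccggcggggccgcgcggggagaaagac

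The SOX1 window had 82% G and C and none of these motifs. The SOX2 window held 1 ACAAAG and 1 CCAAT box at 68.8% G and C, and the SOX21 window 1 CCAAT box at 58.8%. The SOX12 window, with 42 CpG sites and 79.2% G and C, held 1 octamer and 1 CCAAT box. Among 35116 windows of the same length, 13.7% held ACAAAG, 9.29% ACAATG, 1.63% the octamer and 32.0% a CCAAT box, and a match is a description of the letters only. RefSeq windows were given for 7 of the 9 members, and none for SOX11 and SOX9.

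Per kilobase of exon, SOX2 was the most abundant member at day 10 and SOX4 at day 60, in both genotypes. At day 60 the SOX4 level was 328 ± 6.28 CPM per kb in knockout and 309 ± 49.8 CPM per kb in wildtype organoids (SD, n = 2 each). In knockout organoids SOX2 followed at 164 ± 12.2 CPM per kb, then SOX11 at 131 ± 2.35, SOX12 at 87.3 ± 5.24, SOX9 at 52.4 ± 2.78, SOX3 at 41.9 ± 0.364, SOX1 at 35.8 ± 4.31, SOX21 at 13.4 ± 0.263 and SOX6 at 1.05 ± 0.0333 CPM per kb, with no overlap between neighbours in this order. In wildtype organoids at day 60 the order was SOX4, SOX11 (132 ± 32.1 CPM per kb), SOX2 (113 ± 18), SOX12 (98.5 ± 11.1), SOX9 (44.8 ± 7.24), SOX3 (40.0 ± 2.70), SOX1 (17.9 ± 0.512), SOX21 (8.07 ± 1.81) and SOX6 (0.662 ± 0.0501). There the libraries of SOX11 and SOX2, of SOX2 and SOX12, and of SOX9 and SOX3 overlapped.

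At day 10 SOX2 stood at 204 ± 10.8 CPM per kb in knockout and 153 ± 59.5 CPM per kb in wildtype organoids (SD, n = 4 each). SOX11 came next, at 64.1 ± 8.78 and 73.8 ± 2.52 CPM per kb. In knockout organoids SOX11, SOX3 (58.1 ± 11.7 CPM per kb), SOX21 (55.6 ± 11), SOX4 (45.5 ± 6.77) and SOX12 (38.0 ± 13.1) each overlapped with the next in order. In wildtype organoids SOX4 (53.8 ± 12.9 CPM per kb), SOX3 (44.2 ± 3.56), SOX21 (38.6 ± 26.7) and SOX12 (37.5 ± 7.59) overlapped in the same way. SOX9, SOX1 and SOX6 were the 3 lowest members in both genotypes at day 10, with SOX1 at 5.90 ± 2.66 CPM per kb in knockout and 5.58 ± 1.17 CPM per kb in wildtype organoids. The lengths are unions of all GENCODE v29 exons, so SOX6, a gene with 37 separate exon blocks, is understated against the others, most of which have 1.

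**Figure D1:**
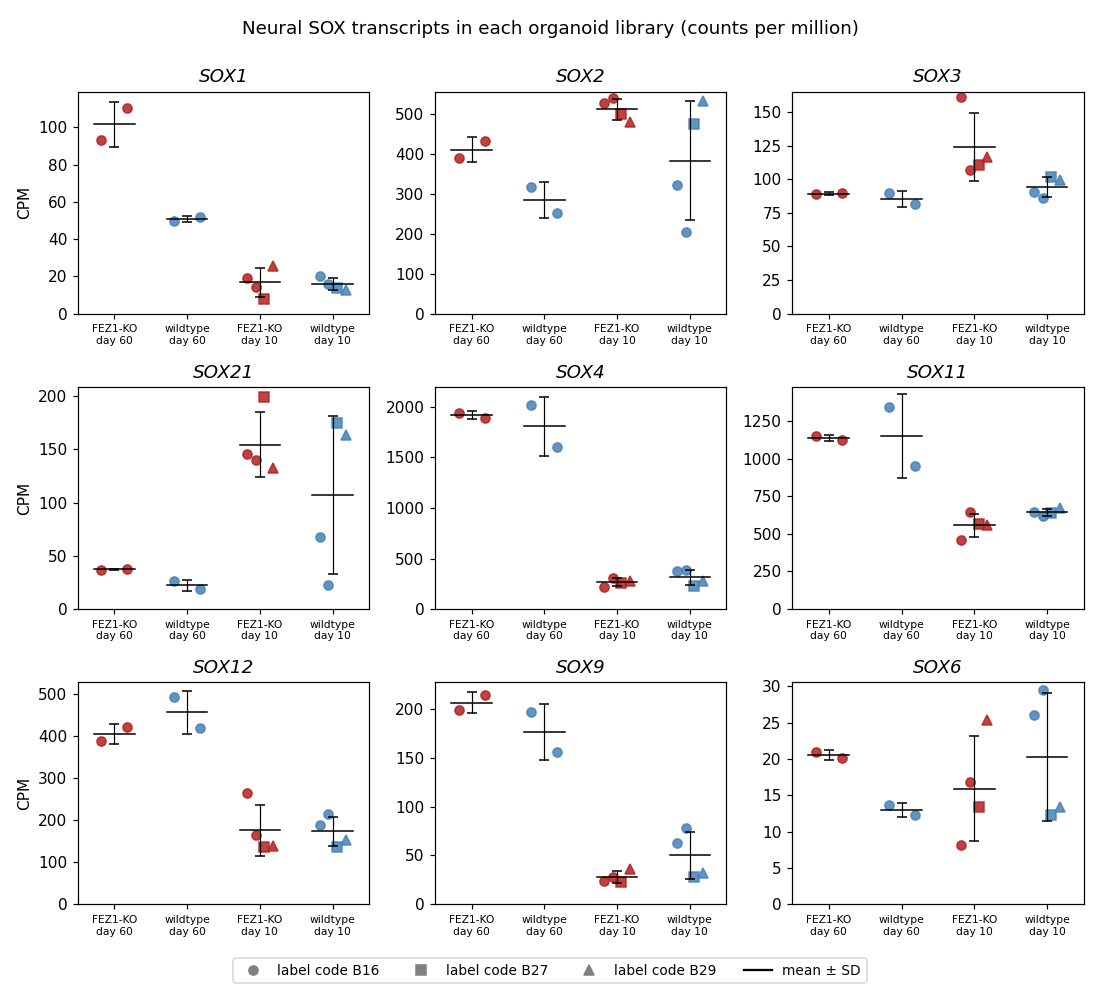
Level (CPM) of each of the 9 SOX genes in each library (points), by genotype and day, with the group mean and SD (bars) and the label code as the marker shape. SOX4 lies at 1604 to 2017 CPM at day 60 and 217 to 383 CPM at day 10. At day 10 the 2 wildtype circles lie both above or both below the square and the triangle for every gene except SOX11.

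The day comparison asked how SOX transcripts differed between older and younger organoids of each genotype. All 3 SOXC genes and SOX1 and SOX9 were higher at day 60 in both genotypes, and SOX21 was lower in both. SOX4, a SOXC factor of newly formed neurons, had 1944 and 1892 CPM in knockout organoids at day 60, against 217, 311, 255 and 281 CPM in knockout organoids at day 10. In wildtype organoids it had 2017 and 1604 CPM at day 60, against 373, 383, 227 and 276 CPM at day 10. Every day 60 library lay several fold above every day 10 library. The log2 fold change was 2.85 ± 0.21 in knockout (SE, adjusted p = 1.4e-06) and 2.52 ± 0.21 in wildtype organoids (adjusted p = 3.26e-06, edgeR).

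SOX11, its closest relative in the neuronal lineage, had 1153 and 1124 CPM in knockout organoids at day 60, against 461, 648, 568 and 559 CPM in knockout organoids at day 10. In wildtype organoids it had 1347 and 952 CPM at day 60, against 646, 619, 637 and 671 CPM at day 10. The days did not overlap in either genotype, and the log2 fold changes were 1.03 ± 0.16 (adjusted p = 0.000219) and 0.84 ± 0.16 (adjusted p = 0.000946), smaller than those of SOX4. Without wildtype replicate 1 at day 60 the wildtype value was 0.55 (adjusted p = 0.0321). SOX12, the third SOXC gene and in mouse a weaker activator than the others, had 387 and 421 CPM in knockout organoids at day 60 and 136 to 265 CPM at day 10, and 493 and 419.8 CPM in wildtype organoids at day 60 and 137 to 215 CPM at day 10. Its log2 fold changes were 1.20 ± 0.26 (adjusted p = 0.00198) and 1.40 ± 0.26 (adjusted p = 0.000783).

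The SOXB genes did not move together between the days. SOX1, the SOXB1 gene that in mouse appears first in committed neural plate, had 93.0 and 110.3 CPM in knockout organoids at day 60, against 19.2, 14.4, 7.82 and 25.7 CPM in knockout organoids at day 10. In wildtype organoids it had 49.7 and 51.8 CPM at day 60, against 20.4, 16.1, 13.9 and 13.0 CPM at day 10. SOX1 was higher in every day 60 library, by 2.60 ± 0.34 on the log2 scale in knockout (adjusted p = 6.61e-05) and 1.68 ± 0.34 in wildtype organoids (adjusted p = 0.00139).

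SOX2, the SOXB1 factor shared by pluripotent cells and neural progenitors, had 390.1 and 433 CPM in knockout organoids at day 60, against 529.6, 540.3, 500.2 and 481 CPM in knockout organoids at day 10. In wildtype organoids it had 317 and 253 CPM at day 60, against 322, 204, 477 and 533 CPM at day 10. The days overlapped in wildtype but not in knockout organoids, and the log2 fold changes of -0.32 ± 0.30 in knockout (95% interval -0.97 to 0.34, adjusted p = 0.384) and -0.43 ± 0.30 in wildtype organoids (adjusted p = 0.242) did not pass the threshold of 0.05. The wildtype value depended on the label code: it was 0.11 with code B16 alone (adjusted p = 0.705) and -0.85 without the B16 wildtype libraries of day 10 (adjusted p = 0.00134).

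SOX3, the X-linked SOXB1 gene, had 88.8 and 89.9 CPM in knockout organoids at day 60, against 161, 107, 111 and 117 CPM at day 10, and it fell by 0.47 ± 0.17 on the log2 scale (adjusted p = 0.0341). The call was lost without either knockout library of day 60 (adjusted p up to 0.145), with the label code as covariate (-0.48, adjusted p = 0.0559) and, at the threshold, with no filter on low counts. With the covariate or without the filter 6 of 9 members were called. The share of all genes called in those fits is not given, so this count has no background. In wildtype organoids SOX3 had 89.4 and 81.3 CPM at day 60 and 90.1, 85.6, 101 and 99.7 CPM at day 10, and its log2 fold change was -0.14 ± 0.17 (adjusted p = 0.498).

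SOX21, the SOXB2 antagonist of SOXB1 activity, had 36.7 and 37.7 CPM in knockout organoids at day 60, against 146, 139.8, 199.6 and 132 CPM at day 10. It fell by 2.05 ± 0.64 on the log2 scale (adjusted p = 0.0173). In wildtype organoids it had 26 and 18.9 CPM at day 60, against 67.9, 22.7, 175 and 163 CPM at day 10, and fell by 2.26 ± 0.65 (adjusted p = 0.0123). Among the wildtype libraries of day 10, those of B27 and B29 held the highest values. Replicate 1 of B16 lay above both day 60 values, and replicate 2 of B16 lay between them. With code B16 alone the wildtype log2 fold change was -1.02 and was not called (adjusted p = 0.0740). Leaving out any single day 60 library of the genotype also ended the call (adjusted p up to 0.0999).

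SOX9, a factor of neural stem cells and glia, had 199 and 214 CPM in knockout organoids at day 60, against 24.1, 27.7, 22.6 and 36.5 CPM at day 10, a log2 fold change of 2.90 ± 0.35 (adjusted p = 4.42e-05). In wildtype organoids it had 196 and 156 CPM at day 60, against 62.3, 78.3, 27.6 and 32.1 CPM at day 10, a log2 fold change of 1.81 ± 0.35 (adjusted p = 0.00109). The day 60 libraries of both genotypes lay above every day 10 library. SOX6, the least abundant member per kilobase, had 21.0 and 20.1 CPM in knockout organoids at day 60 and 8.14 to 25.3 CPM at day 10, and 13.7 and 12.3 CPM in wildtype organoids at day 60 and 12.2 to 29.5 CPM at day 10. Its log2 fold changes of 0.37 ± 0.42 (adjusted p = 0.474) and -0.64 ± 0.44 (adjusted p = 0.236) did not pass the threshold, and with code B16 alone the wildtype value was -1.10 (adjusted p = 0.0141).

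In all, 7 of 9 members were called between the days in knockout organoids, 5 higher and 2 lower, beside 57.6% of all genes tested (30.7% higher, 26.9% lower). In wildtype organoids 6 of 9 were called, 5 higher and 1 lower, beside 55.4% of all genes (29.3% higher, 26.1% lower). In each genotype 5 members had every day 60 library above every day 10 library, which was so for 37% of all genes in knockout and 37.2% in wildtype organoids, and 3 members (SOX2, SOX3 and SOX21) had every knockout library of day 60 below those of day 10, as had 31.6% of all genes. The median log2 fold change of the members was 1.03 in knockout and 0.84 in wildtype organoids, and that of all genes 0.03 and -0.01. Both day comparisons set libraries of B16 alone at day 60 against 3 codes at day 10. With B16 alone the counts were again 7 in knockout and 6 in wildtype organoids, but the wildtype members were not the same. There SOX21 lost its call and SOX6 gained one, as given above. The share of all genes called in that fit is not given here. The neuron markers moved with the day, at 5303 to 5455 CPM in knockout and 4596 to 6052 CPM in wildtype organoids at day 60 against 689 to 1003 and 716 to 2509 CPM at day 10, and their part in these results was not tested.

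**Figure D2:**
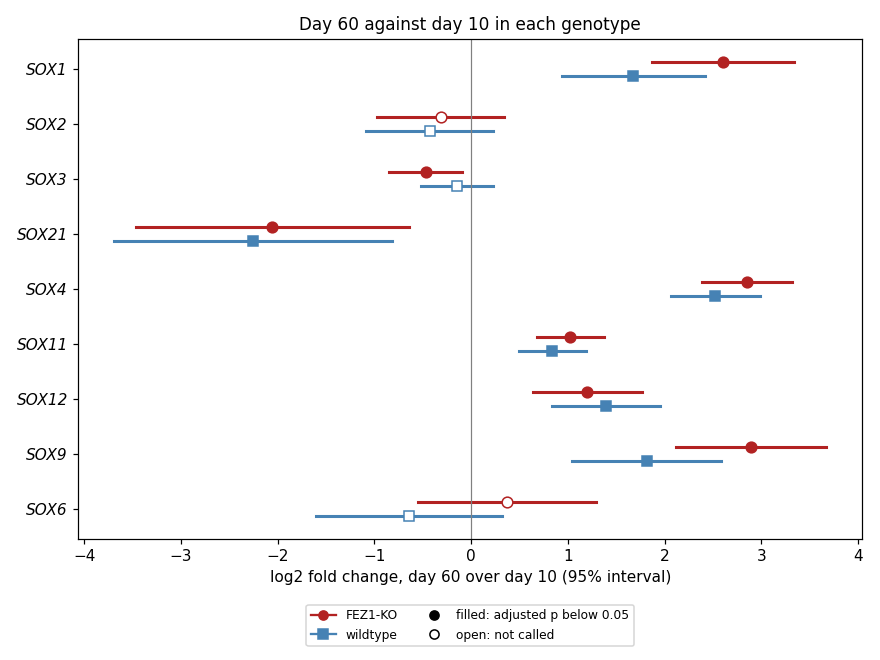
Log2 fold change of each SOX gene at day 60 over day 10 (points, with 95% intervals) in FEZ1 knockout and wildtype organoids, filled where the adjusted p was below 0.05. SOX1, SOX4, SOX11, SOX12 and SOX9 lie right of 0 and SOX21 left of it in both genotypes, from 2.90 for SOX9 in knockout to -2.26 for SOX21 in wildtype organoids.

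The summed SOXC counts per SOXB1 count describe the balance of the subfamilies within each library. The ratio was 6.09 and 5.42 in knockout and 8.46 and 7.71 in wildtype organoids at day 60. At day 10 it was 1.33, 1.70, 1.55 and 1.57 in knockout and 2.79, 3.98, 1.69 and 1.71 in wildtype organoids. Every knockout library lay below every wildtype library at day 60, whereas at day 10 only the 2 wildtype libraries of B16 lay above the rest. SOX1 made up 16.8 ± 0.814% of the SOXB1 counts in knockout and 12.2 ± 1.78% in wildtype organoids at day 60 (SD, n = 2 each), and 2.57 ± 1.20% and 3.59 ± 1.65% at day 10 (n = 4 each). SOX4 made up 55.4 ± 0.534% and 53.1 ± 1.15% of the SOXC counts at day 60 and 26.5 ± 2.47% and 27.5 ± 4.33% at day 10. These sums join genes of different lengths, so they compare libraries and not genes.

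**Figure D3:**
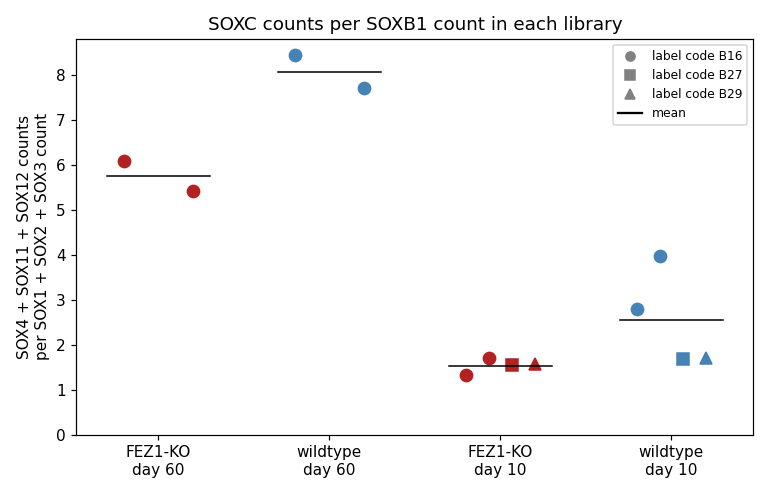
Summed counts of SOX4, SOX11 and SOX12 per summed count of SOX1, SOX2 and SOX3 in each library, with group means as lines and label codes as marker shapes. Knockout lies at 6.09 and 5.42 against 8.46 and 7.71 in wildtype at day 60, and the B16 wildtype libraries of day 10 lie at 2.79 and 3.98, above the other 6.

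The genotype comparison at day 60 asked which members differed without FEZ1 in the older tissue. SOX1 was the member with the largest log2 fold change, at 102 ± 12.3 CPM in knockout and 50.8 ± 1.46 CPM in wildtype organoids (SD, n = 2 each). No library overlapped, and the log2 fold change was 1.0 ± 0.40 (95% interval 0.12 to 1.89), but it did not pass the correction in the fit of all libraries (adjusted p = 0.748, edgeR). In a fit of the day 60 libraries alone SOX1 was called, at 1.01 (adjusted p = 0.0259), as were 0.78% of the 16671 genes tested there, and DESeq2 gave 0.99 (adjusted p = 0.528).

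Of the other SOXB genes, SOX2 stood at 412 ± 30.6 CPM in knockout and 285 ± 45.3 CPM in wildtype organoids, a log2 fold change of 0.53 ± 0.34 (95% interval -0.21 to 1.28). SOX21 stood at 37.2 ± 0.730 and 22.4 ± 5.04 CPM (0.73 ± 0.68), while SOX3 showed 89.3 ± 0.776 and 85.4 ± 5.75 CPM (0.07 ± 0.20). SOX9 and SOX6 were also higher in both knockout libraries, at 206 ± 11 against 176 ± 28.5 CPM for SOX9 (0.23 ± 0.42) and 20.5 ± 0.653 against 13.0 ± 0.984 CPM for SOX6 (0.66 ± 0.50). The SOXC genes overlapped between the genotypes, with log2 fold changes of 0.08 ± 0.25 for SOX4 (95% interval -0.47 to 0.63), -0.01 ± 0.19 for SOX11 (-0.42 to 0.40) and -0.17 ± 0.31 for SOX12.

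Thus 0 of 9 members were called at day 60 with edgeR and with DESeq2, beside 0.0225% of all genes with edgeR, and SOX1 alone had an unadjusted p below 0.05. The libraries of 5 members did not overlap and were higher in knockout organoids, which was so for 24.1% of all genes. The median log2 fold change was 0.23 for the members and -0.01 for all genes. Neural progenitor markers stood at 2880 to 2920 CPM in knockout and 2292 to 2308 CPM in wildtype organoids at day 60. All 12 were higher in knockout organoids (median log2 fold change 0.46) and 0 were called. Interneuron markers stood at 384 to 393 CPM in knockout and 77.8 to 132 CPM in wildtype organoids at day 60, and mesenchyme and cartilage markers at 712 to 898 and 1938 to 4017 CPM. The part of these 3 marker sets in the SOX values was not tested.

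**Figure D4:**
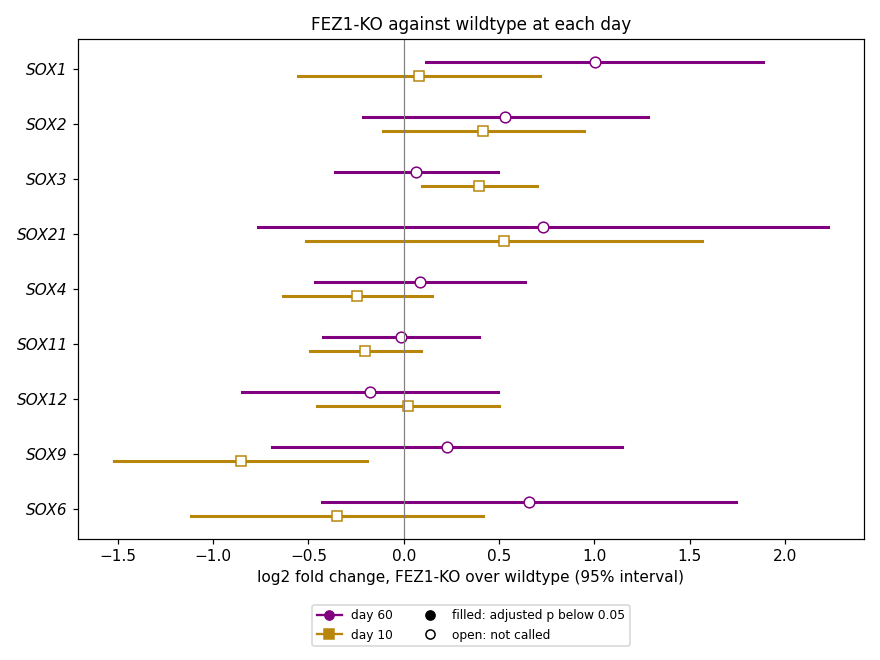
Log2 fold change of each SOX gene in FEZ1 knockout over wildtype organoids at day 60 and day 10 (points, with 95% intervals); open points mark an adjusted p of 0.05 or more. No point is filled, and the intervals of SOX1 at day 60 (0.12 to 1.89), SOX3 at day 10 (0.09 to 0.70) and SOX9 at day 10 (-1.52 to -0.19) do not cross 0.

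At day 10 the genotypes were compared in early organoids with 4 libraries each. SOX3 was the member whose libraries did not overlap, at 161, 107, 111 and 117 CPM in knockout and 90.1, 85.6, 101 and 99.7 CPM in wildtype organoids, and such a gap upward occurred in 2.33% of all genes. Its log2 fold change of 0.40 ± 0.14 (95% interval 0.09 to 0.70) did not pass the correction (adjusted p = 0.279, edgeR). SOX9 averaged 27.7 ± 6.23 CPM in knockout and 50.1 ± 24.3 CPM in wildtype organoids (SD, n = 4 each), with overlap, and a log2 fold change of -0.86 ± 0.30 (95% interval -1.52 to -0.19, adjusted p = 0.284).

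The other log2 fold changes at day 10 lay between -0.35 ± 0.35 for SOX6 and 0.53 ± 0.47 for SOX21, with SOX2 at 0.42 ± 0.24, SOX4 at -0.24 ± 0.18, SOX11 at -0.20 ± 0.13, SOX1 at 0.08 ± 0.29 and SOX12 at 0.02 ± 0.22. With edgeR 0 of 9 members were called, beside 0.124% of all genes, and DESeq2 also called 0. SOX3 and SOX9 had an unadjusted p below 0.05. In the authors' deposited table of this day 10 contrast the adjusted p was 0.0943 for SOX3 and 0.126 for SOX9, with log2 fold changes of 0.42 and -0.83.

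Within label codes the day 10 values fell apart. In code B16, 5 of 9 members were called between the genotypes, 3 higher and 2 lower, beside 19% of all genes. In codes B27 and B29, 0 of 9 were called with edgeR, beside 0.0507% of all genes, 0 had an unadjusted p below 0.05, and DESeq2 called 0. For SOX2 the wildtype libraries differed by code, with 322 and 204 CPM in B16 against 477 and 533 CPM in B27 and B29, and the 4 knockout libraries had 481 to 540.3 CPM. For SOX3 the value that stood out was that of knockout replicate 1, at 161 CPM against 107 to 117 CPM in the other knockout libraries, and its wildtype libraries had 85.6 to 101 CPM.

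In B16, SOX2 had 529.6 and 540.3 CPM in knockout and 322 and 204 CPM in wildtype organoids, and rose by 1.02 ± 0.20 on the log2 scale (adjusted p = 0.00543). In B27 and B29 it had 500.2 and 481 CPM in knockout and 477 and 533 CPM in wildtype organoids, a log2 fold change of -0.04 ± 0.19 (95% interval -0.47 to 0.39). The difference between the code groups was 1.07 ± 0.28 (adjusted p = 0.0490), 1 of 2 members called in that test beside 5.95% of all genes. SOX21 followed the same pattern, with 146 and 139.8 CPM in knockout and 67.9 and 22.7 CPM in wildtype organoids of B16 (log2 fold change 1.66 ± 0.39, adjusted p = 0.0163), against 199.6 and 132 CPM in knockout and 175 and 163 CPM in wildtype organoids of B27 and B29 (-0.03 ± 0.38). Its difference between the code groups, 1.68 ± 0.55, did not pass (adjusted p = 0.104).

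SOX9 had 24.1 and 27.7 CPM in knockout and 62.3 and 78.3 CPM in wildtype organoids of B16, and fell by 1.44 ± 0.22 on the log2 scale (adjusted p = 0.00162). In B27 and B29 it had 22.6 and 36.5 CPM in knockout and 27.6 and 32.1 CPM in wildtype organoids, a log2 fold change of -0.02 ± 0.22 (95% interval -0.51 to 0.48). The difference between the code groups was -1.42 ± 0.32 (adjusted p = 0.0255). SOX6 had 8.14 and 16.8 CPM in knockout and 26 and 29.5 CPM in wildtype organoids of B16 (-1.15 ± 0.33, adjusted p = 0.0343), against 13.3 and 25.3 CPM in knockout and 12.2 and 13.3 CPM in wildtype organoids of B27 and B29 (0.60 ± 0.33). SOX3 rose by 0.61 ± 0.17 in B16 (adjusted p = 0.0323) and stood at 0.18 ± 0.17 in B27 and B29, and SOX4 stood at -0.52 ± 0.18 in B16 (adjusted p = 0.0695).

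With 2 libraries a group most of these calls depended on single libraries. Leaving out a library leaves 1 in its group, which the fit then assumes to vary like the other groups. On that assumption SOX9 was called without each of the 4 B16 libraries of day 10 in turn, between -1.60 and -1.26 on the log2 scale. SOX2 lost it without wildtype replicate 2 (0.74, adjusted p = 0.0512). SOX3 and SOX6 lost it without knockout replicate 1 (0.29 and -0.72), wildtype replicate 1 or wildtype replicate 2, and SOX21 without knockout replicate 1, knockout replicate 2 or wildtype replicate 2 (1.08). The SOX21 call was also lost with no filter on low counts (1.65, adjusted p = 0.0726), which left 4 of 9 members called. For that fit too the share of all genes called is not given. Both differences between code groups lost their call without knockout replicate 1 or 4 or wildtype replicate 2, 3 or 4, and that of SOX2 also without knockout replicate 3, with adjusted p up to 0.205.

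Markers of other cell types moved with the same libraries. The neural crest gene SOX10, a SOXE relative of SOX9, stood at 4.84 to 11.3 CPM in knockout organoids of day 10 and at 184 and 278 CPM in wildtype organoids of B16, against 5.24 and 5.42 CPM in those of B27 and B29. Neuron markers summed to 2200 and 2509 CPM in the B16 wildtype libraries and 716 and 753 CPM in the other wildtype libraries, and mesenchyme and cartilage markers to 1588 and 1864 against 862 and 834 CPM. Oligodendrocyte lineage, interneuron and endoderm markers were also higher there, and neural progenitor markers overlapped. Pluripotency markers went the other way, at 1675 and 1479 against 2295 and 2272 CPM. So did retina and pigment epithelium markers, at 659 and 550 against 912 and 914 CPM, and astrocyte markers, at 642 and 530 against 817 and 902 CPM. The part of these marker sets in the SOX values was not tested.

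**Figure D5:**
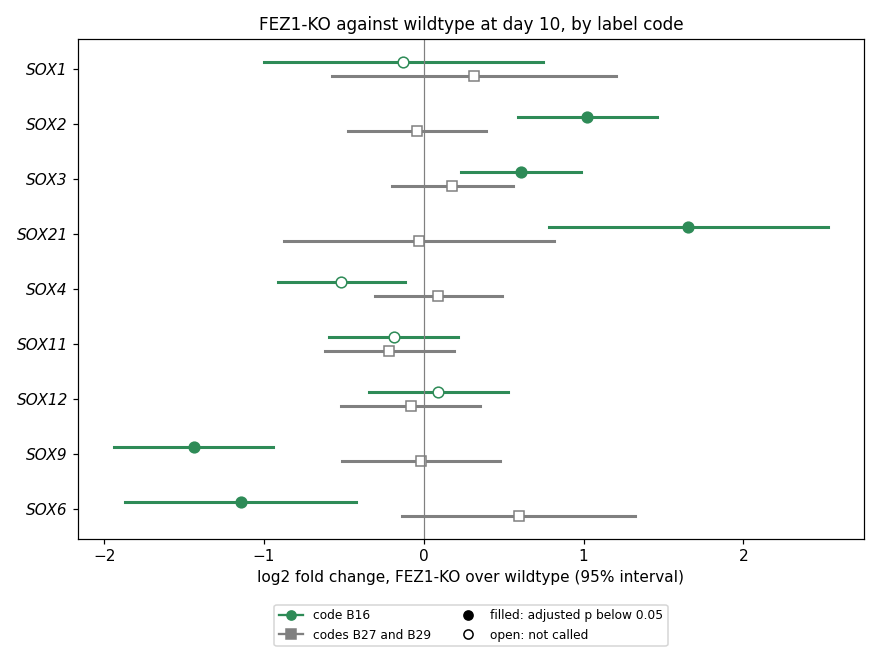
Log2 fold change of each SOX gene in FEZ1 knockout over wildtype organoids at day 10 (points, with 95% intervals), separately in code B16 and in codes B27 and B29, filled where the adjusted p was below 0.05. The 5 filled points, SOX2 at 1.02, SOX3 at 0.61, SOX21 at 1.66, SOX9 at -1.44 and SOX6 at -1.15, all belong to B16, and each B27 and B29 interval crosses 0.

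Whether the genotype effect differed between day 60 and day 10 was tested in the same fit. The difference was 1.08 ± 0.52 on the log2 scale for SOX9 (adjusted p = 0.721), 1.01 ± 0.61 for SOX6 and 0.92 ± 0.49 for SOX1 (adjusted p = 0.784), and between -0.33 and 0.33 for the other 6. With edgeR 0 of 9 members were called, beside 0% of all genes, 0 had an unadjusted p below 0.05, and DESeq2 called 0.

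Long noncoding RNAs near the SOX genes moved with some of them. SOX21-AS1, whose start lies 171 bases from that of SOX21 in RefSeq (317 in GENCODE v29) on the opposite strand, had 30.5, 35, 35 and 25.6 CPM in knockout and 14.8, 7.30, 38.0 and 34.2 CPM in wildtype organoids at day 10. Like SOX21, it was low in the wildtype libraries of B16, where it rose by 1.56 ± 0.27 in knockout (adjusted p = 0.00328), and its difference between the code groups was called (1.81 ± 0.38, adjusted p = 0.0193). SOX21-AS1 also fell at day 60, by 1.48 ± 0.52 in knockout (adjusted p = 0.0292) and 1.97 ± 0.54 in wildtype organoids (adjusted p = 0.00909).

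SOX2-OT, a transcript that spans SOX2 on the same strand and shares 0 exon bases with it in GENCODE v29, was higher at day 60 in both genotypes. It had 24.8 and 25.8 CPM in knockout and 16.6 and 10.3 CPM in wildtype organoids at day 60, against 3.92 to 6.99 and 2.09 to 5.48 CPM at day 10, with day log2 fold changes of 2.17 ± 0.37 (adjusted p = 0.000482) and 1.90 ± 0.38 (adjusted p = 0.00139). In B16 at day 10 SOX2-OT rose in knockout organoids by 1.44 ± 0.33 (adjusted p = 0.0129), as SOX2 did. Its difference between the code groups, 1.36 ± 0.45, was not called (adjusted p = 0.111, edgeR). SOX1-OT, downstream of SOX1, had 7.13 and 10.4 CPM in knockout and 2.34 and 1.56 CPM in wildtype organoids at day 60. Like SOX1 it was higher in both knockout libraries, by 2.16 ± 0.33 on the log2 scale, which did not pass the correction (adjusted p = 0.111). Between the days SOX1-OT rose in knockout organoids (1.77 ± 0.27, adjusted p = 0.000195, edgeR). Unlike SOX1, it was not called between the days in wildtype organoids (0.13 ± 0.29, adjusted p = 0.719).

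SOX9-AS1 stood at 5.43 and 5.99 CPM in knockout and 4.38 and 3.93 CPM in wildtype organoids at day 60, against 0.182 to 0.707 and 0.570 to 2.24 CPM at day 10. It was called higher at day 60 in both genotypes and, like SOX9, lower in knockout organoids of B16 at day 10 (-2.04 ± 0.45, adjusted p = 0.0110). In B27 and B29 its log2 fold change was -0.72 ± 0.52. Unlike that of SOX9, its difference between the code groups was not called (-1.33 ± 0.70, adjusted p = 0.295, edgeR). NRSN2-AS1, antisense across SOX12, was not called between days or genotypes. CASC15, downstream of SOX4, stood at 18.1 and 20.2 CPM in knockout and 15.5 and 15.0 CPM in wildtype organoids at day 60, against 6.05 to 12.2 and 6.94 to 17.7 CPM at day 10. It rose between the days in knockout organoids (1.16 ± 0.34, adjusted p = 0.0127) and was not called in wildtype organoids (0.35 ± 0.35). In B16 at day 10 it fell in knockout organoids by 1.17 ± 0.23 (adjusted p = 0.00628), and its difference between the code groups was -1.54 ± 0.33 (adjusted p = 0.0215), both comparisons in which SOX4 was not called. Strand use in the counting is not given in the sources used here, so reads over the 168 exon bases that SOX4 shares with an antisense transcript, or the 219 that SOX6 shares with C11orf58, cannot be assigned with certainty.

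Partners and reported targets of the subfamilies were counted from lists chosen with earlier results of these data known. Of 18 SOXB1 partners and targets, 9 were called higher and 6 lower at day 60 in knockout organoids, and 7 higher and 6 lower in wildtype organoids, where of all genes 57.6% (30.7% higher) and 55.4% (29.3% higher) were called. The POU partner factor POU3F3 averaged 581 ± 7.96 CPM in knockout and 466 ± 53.3 CPM in wildtype organoids at day 60, and 0.855 ± 0.826 and 2.65 ± 2.35 CPM at day 10. POU3F4 rose in the same way, by 9.70 ± 0.61 and 8.61 ± 0.60 on the log2 scale. Between the genotypes at day 60, 16 of the 18 had higher values in knockout organoids, 0 were called, and the median was 0.49 beside -0.01 for all genes. PAX6, a SOX2 partner in eye and forebrain, stood at 344 ± 15.2 CPM in knockout and 234 ± 15.9 CPM in wildtype organoids (0.56 ± 0.17, adjusted p = 0.50, the smallest p of the list). At day 10 0 of the 18 were called in the fit of 4 groups, and ZIC1 had the smallest p (-2.17 ± 0.49, adjusted p = 0.221). The wildtype libraries of day 10 had 91.2 and 153.7 CPM of ZIC1 in B16 against 36.5 and 33.7 CPM in B27 and B29. Its difference between the code groups was -2.25 ± 0.58 (adjusted p = 0.0470). In B16, 4 of the 18 were called higher and 2 lower in knockout organoids, beside 8% and 11% of all genes. In B27 and B29 0 were called.

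Of 16 SOXC targets and neuronal genes, 15 rose and 1 fell between the days in knockout organoids, beside 57.6% of all genes called, and 8 rose and 1 fell in wildtype organoids, a count near the 55.4% of all genes. The neuronal factor NEUROD6 averaged 232 ± 31.0 CPM in knockout and 312 ± 90.6 CPM in wildtype organoids at day 60, and stood at 0 to 0.0521 CPM in the day 10 libraries. NEUROD2, a related factor of cortical neurons, averaged 352 ± 33.1 and 552 ± 148 CPM at day 60. Between the genotypes at day 60, 0 of the 16 were called and the median was 0.02. In B16 at day 10, 11 of the 16 fell in knockout organoids (median -3.19), as did 11% of all genes, while in B27 and B29 0 were called (median 0.02).

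Of 16 SOX9 partners and targets, 7 rose and 3 fell between the days in knockout organoids, and 6 rose and 5 fell in wildtype organoids, against 57.6% and 55.4% of all genes called. The glial partner factor NFIA averaged 114 ± 11.4 CPM in knockout and 135 ± 31.4 CPM in wildtype organoids at day 60, and 0.0513 ± 0.0670 and 0.694 ± 0.647 CPM at day 10. NFIB averaged 298 ± 33.6 and 392 ± 85 CPM at day 60. In B16 at day 10, 1 rose and 8 fell in knockout organoids, beside 8% and 11% of all genes, and in B27 and B29 0 were called. At day 60, 0 of the 16 were called between the genotypes.

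Of 11 tested genes tied to SOX6 in interneurons and oligodendrocytes, 8 rose in knockout organoids between the days, beside 30.7% of all genes, and 5 rose and 1 fell in wildtype organoids, close to the 55.4% of all genes called there. The interneuron factor DLX1 averaged 84.0 ± 2.87 CPM in knockout and 12.8 ± 7.03 CPM in wildtype organoids at day 60 (SD, n = 2 each). Its log2 fold change between the genotypes there, 2.71 ± 0.60, did not pass (adjusted p = 0.337, edgeR). DLX5 stood at 21.1 ± 1.5 and 3.25 ± 1.52 CPM there, and its log2 fold change of 2.70 ± 0.48 did not pass (adjusted p = 0.186). In B16 at day 10, 6 of the 11 fell in knockout organoids, beside 11% of all genes.

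Among 6 tested SOX genes outside the group, the SOXE gene SOX8 rose between the days by 1.51 ± 0.17 in knockout and 1.71 ± 0.17 in wildtype organoids, and the SOXD gene SOX13 fell by 2.03 ± 0.29 in knockout and 2.75 ± 0.30 in wildtype organoids. SOX8 averaged 112 ± 0.160 CPM in knockout and 99.2 ± 3.92 CPM in wildtype organoids at day 60, against 39.3 ± 6.74 and 30.4 ± 4.40 CPM at day 10. SOX10 fell between the days in wildtype organoids (-5.72 ± 1.68, adjusted p = 0.0134), whose B16 libraries held its high values at day 10. The endothelial SOXF gene SOX7 was called higher at day 60 in wildtype organoids (3.13 ± 0.67, adjusted p = 0.00208), with 14.2 CPM in replicate 2 and 1.41 CPM in replicate 1.

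The genes whose log2 CPM profiles lay closest to a member over the 12 libraries were found among 9101 genes by the root mean square difference after centring. For SOX2 these were SALL1 (0.16 log2 units, Pearson r = 0.96), FAM167A (0.16) and PLEKHA7 (0.19). For SOX11 they were DDX6 (0.0757, r = 0.99), TSPYL1 and SRD5A1. For SOX9 they were PLEKHA6 (0.17, r = 0.99), ST7 and APH1B, and for SOX6 MAML2 (0.25, r = 0.91), SESN3 and HECW2. The libraries share the split by day and the apart-standing B16 wildtype libraries, so these values describe likeness only.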

How the data were processed

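Total RNA was sequenced by the authors from 12 libraries of H1-derived organoids. Per the submitters' processing notes, STAR, HTSeq, DESeq2 and the genome hg19 were used, with no version or setting stated there. The deposited raw counts per gene were the values tested. The authors' normalized table (a signal, counts divided by size factors) matched the counts in 100% of values within 1e-06 and was used only for that check. The authors' deposited table of the day 10 contrast holds log2 fold changes with standard errors, a Wald score and p-values, and was read for the members only.

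Counts were fitted with edgeR 4.0.16 (limma 3.58.1, R 4.3.3): TMM scaling, filterByExpr, a robust quasi-likelihood fit of 4 groups (genotype by day), and Benjamini-Hochberg adjustment over all 17757 genes, called below 0.05. A fit of 6 groups split day 10 by label code. DESeq2 1.42.0 was an alternative, and the scripts were tested on simulated data. Intervals are 95% and cover the fitted spread between libraries. Exon lengths come from GENCODE v29 (GRCh38), whereas the counts rest on hg19, and upstream sequences come from RefSeq (GRCh38.p14). The SOX genes and the other lists were chosen with earlier results of these data known. From each list and comparison, up to 2 called genes with the largest change and a mean of at least 5 CPM were named, or, with none called, the gene with the smallest p. SOX8, SOX13 and DLX1 were given beyond the comparison that named them. The values of 1 gene that this rule named are not reported here.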

Additional observations from a re-analysis of the deposited data

Results flagged for a closer look

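The genotype effect on SOX2 at day 10 differed between the label codes, by 1.07 ± 0.28 on the log2 scale (B16 minus B27 and B29, adjusted p = 0.0490, edgeR), and that on SOX9 by -1.42 ± 0.32 (adjusted p = 0.0255). Code by code, the mean log2 CPM of SOX2 in knockout minus wildtype organoids was 1.06 in B16, 0.07 in B27 and -0.15 in B29, and that of SOX9 was -1.43, -0.29 and 0.18. SOX21 counts per SOX2 count were 0.399 in knockout replicate 3 of day 10, far from the 0.259 to 0.276 of the remaining day 10 knockout libraries, with a gap of 0.877 of the group's range. By its construction the 95% limit of Dixon's test, which this gap passes, is passed by chance in about 1 in 20 groups. The limit was applied to the level of each of the 9 members and to each ratio, in both day 10 groups, and only this value passed it. Over that many groups a pass by chance would not be unusual.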

How the results depend on the processing

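Among fits of single SOX genes under the alternatives, 587 kept their direction and their side of the threshold, 31 lost a call, 4 gained one and 29 changed sign, each of these a value that was not called. DESeq2 called 4 members for the difference between code groups (SOX2, SOX21, SOX9 and SOX6), and the day 60 libraries alone gave 1 genotype call at day 60 (SOX1). Leaving out each library in turn gave 1 to 6 calls in B16, 0 to 6 for the difference between code groups, 5 to 7 for the day in knockout and 5 to 7 in wildtype organoids, and 0 for the other comparisons. SOX11 per SOX2 alone averaged 2.77 and 4.01 at day 60 in knockout and wildtype organoids, and 1.09 at day 10 in knockout organoids. Except for the fit of the day 60 libraries alone, the share of all genes called under these alternatives is not given. The member counts therefore have no background to be read against. The cause of these shifts was not tested.

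The sign changes at day 10 (knockout over wildtype) were, for SOX1, -0.020 with the replicate block and -0.018 with the label code as covariate, and for SOX12 -0.013 with the replicate block and -0.010 with the day 10 libraries alone. Without the B16 wildtype libraries SOX21 was -0.12, SOX4 0.095 and SOX6 0.33, and for the difference between days SOX4 was -0.0035. At day 60 SOX11 was 0.0079 with the replicate block. For the difference between days SOX21 was -0.12 with the replicate block and -0.069 with the code. The wildtype day value of SOX2 was 0.11 with B16 alone. Leaving out single libraries moved the day 10 values across 0 for SOX1 (-0.20 to 0.31) and SOX12 (-0.24 to 0.15), and the day 60 values for SOX3 (-0.0030 to 0.15), SOX4 (-0.074 to 0.27) and SOX11 (-0.24 to 0.27). It did the same to the difference between days for SOX2 (-0.084 to 0.32), SOX11 (-0.041 to 0.47), SOX12 (-0.33 to 0.068) and SOX21 (-0.14 to 0.53).

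Same-numbered libraries did not deviate together at day 10 (correlations 0.12, -0.08, 0.30 and -0.10), and with the replicate block 0 members were called in each genotype comparison. Limits are 2 libraries a group at day 60 and within codes, codes of unstated meaning, and day 60 libraries of B16 only. No member fell below 129 counts in a library.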

Other observations

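At day 60 wildtype replicate 2 held the endothelial SOXF genes SOX18 at 21.6 CPM, SOX7 at 14.2 CPM and SOX17 at 7.77 CPM, chosen after their values were seen, against at most 1.41 CPM in the other day 60 libraries. SOX5, a SOXD relative of SOX6, averaged 150 ± 19.1 CPM in knockout and 212 ± 61.2 CPM in wildtype organoids at day 60, and 53.8 ± 15.3 and 51.4 ± 7.76 CPM at day 10.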
